A study of Mus musculus with 2 samples.

Results

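The high mobility group genes examined here were Hmga1, Hmga2, Hmgb1, Hmgb2, Hmgb3, Hmgn1 and Hmgn2, 7 of 21938 protein-coding genes in the GENCODE vM21 annotation. Myb peaks were selected by the place of their summit, the base of highest signal, which had to lie in the gene body of a member or within 20 kb of it. This gave 31 of the 25793 peaks in the list. ChIP-Seq had been done on Lin– bone marrow cells of WT mice, the fraction left after depletion of cells that carry lineage markers at a purity above 80%. There was 1 library precipitated with an antibody against Myb and 1 with normal rabbit IgG, which served as the background for peak calling. This fraction holds the hematopoietic stem and progenitor cells (HSPCs), and the study set Myb target genes from this experiment beside expression changes in HSPCs that lack p300 and Tet2. No replicate library and no Myb-depleted control was analysed, so every value describes this Myb library and no difference between genes was tested.

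High mobility group proteins are abundant nonhistone proteins of chromatin. HMGA proteins bind the minor groove of AT-rich DNA through short AT-hook motifs, HMGB proteins bend DNA through HMG boxes, and HMGN proteins bind the nucleosome core and compete with linker histone H1. Hmga1 and Hmga2 are expressed in immature and dividing cells and are often raised in cancer, and Hmga2 is known for its part in the self-renewal of fetal hematopoietic stem cells. Myb is a transcription factor required for definitive hematopoiesis that binds short sites with an AAC core.

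The summit sequences printed below are those of the strongest peak at each of Hmga1, Hmgb1, Hmgb2 and Hmgb3, the members with the highest fold enrichment over IgG. Each line gives 151 bases of the plus strand of mm10 (GRCm38), with the summit as the middle base. Capitals mark the Myb motif, taken as CAACGG or CAACTG or TAACGG or TAACTG on either strand.
Hmga1, chr17:27555982-27556132: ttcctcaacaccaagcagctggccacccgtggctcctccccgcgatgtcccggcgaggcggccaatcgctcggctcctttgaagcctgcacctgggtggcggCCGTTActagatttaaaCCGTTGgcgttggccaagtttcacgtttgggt
Hmgb2, chr8:57511655-57511805: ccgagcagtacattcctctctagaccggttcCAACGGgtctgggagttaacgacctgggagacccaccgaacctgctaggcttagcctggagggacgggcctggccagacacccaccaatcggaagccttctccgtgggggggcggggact
Hmgb3, chrX:71545241-71545391: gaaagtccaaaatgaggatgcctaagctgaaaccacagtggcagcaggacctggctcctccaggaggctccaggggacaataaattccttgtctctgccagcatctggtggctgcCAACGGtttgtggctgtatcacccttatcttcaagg
Hmgb1, chr5:149051674-149051824: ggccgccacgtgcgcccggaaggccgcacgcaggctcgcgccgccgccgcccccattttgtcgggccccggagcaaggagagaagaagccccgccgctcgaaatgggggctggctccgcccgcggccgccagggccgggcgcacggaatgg
The Hmga1 sequence held 2 motifs on the minus strand, TAACGG and then CAACGG, whose first plus-strand bases lay 27 and 44 bp past the summit. The Hmgb2 and Hmgb3 sequences each held 1 copy of CAACGG on the plus strand, 44 bp before and 40 bp past the summit. In the Hmgb1 window these letters were not found.

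All 7 members had at least 1 peak by this rule, and of all protein-coding genes 58.6% did. The number per gene was 10 at Hmgb2, 8 at Hmga1, 7 at Hmgb1, 2 at each of Hmgn1 and Hmgn2, and 1 at each of Hmga2 and Hmgb3. The members thus fell into 3 genes with many peaks and 4 with 1 or 2. Among protein-coding genes, 4.11% had at least 8 peaks, 5.92% at least 7 and 2.09% at least 10, and the median gene had 1. Per 100 kb of gene and flanks, the order changed, with 22.7 peaks at Hmgb2, 17.0 at Hmga1, 4.55 at Hmgn2, 4.25 at Hmgn1, 3.94 at Hmgb1, 2.23 at Hmgb3 and 0.644 at Hmga2. Hmgb1, with the longest gene body, was thus no denser than the HMGN genes, and 0.52% of protein-coding genes were at least as dense as Hmgb2, 1.35% as Hmga1 and 26.6% as Hmgb1. These counts come from the same peaks as the selection and are given as a description. Windows of neighboring genes overlap, so 1 peak can count for several genes.

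**Figure D1:**
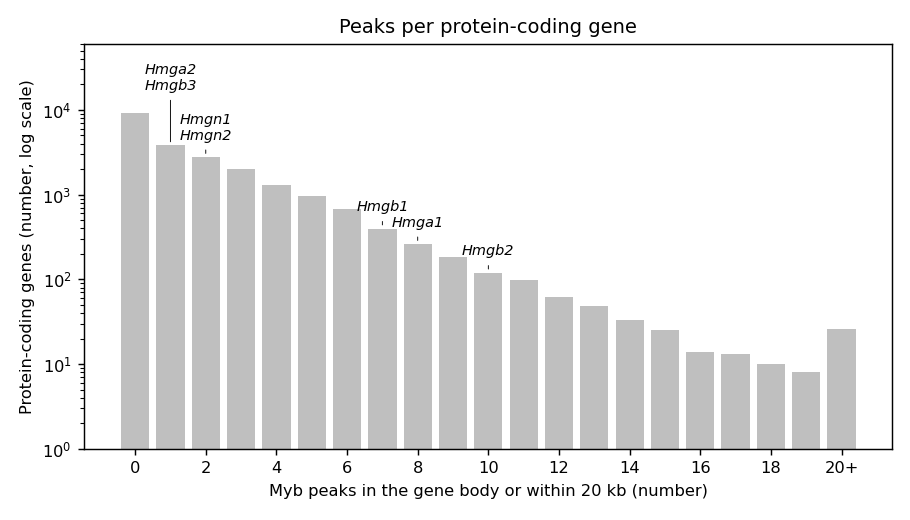
Number of protein-coding genes (vertical axis, log scale) by their number of Myb peaks in the gene body or within 20 kb (horizontal axis), with the position of each member marked. Hmgb2 with 10 peaks, Hmga1 with 8 and Hmgb1 with 7 stand in the right-hand part of the distribution, and the other 4 members have 1 or 2 peaks.

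Hmga1 (ENSMUSG00000046711.16, chr17:27556497-27563674, plus strand) encodes the AT-hook proteins of the HMGA1 group. It carried the peak with the highest fold enrichment in the whole list, at chr17:27554655-27556979. That peak was 2325 bp wide, with a fold enrichment of 30.9 over IgG and a −log10 q-value of 95.8, and its summit rested on 103 Myb reads (84.1 to 125, exact Poisson 95% interval). Fold enrichment depends on the local background as well as on Myb reads, and the background here was low, at 1.6 reads. The lowest background shared by over 5% of rows in the list was 1.46 reads. By reads, this peak was not the highest in the list, which reached 130. Its summit lay 440 bp upstream of the first annotated start site of Hmga1, and the peak itself extended across that start site. In width it ranked 553 of 25793. All intervals on reads cover counting error only, and, since the list gives no depth, the reads behind a summit were worked back from its fold enrichment and significance.

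The other 7 peaks at Hmga1 were far weaker than this one, from 2.75-fold to 6.75-fold. Upstream of it, a peak of 1009 bp had its summit 3886 bp before the gene, with 6.60-fold enrichment and 33 reads (22.7 to 46.3). A narrower one of 470 bp followed at 2209 bp, with 5.18-fold enrichment and 17 reads. The nearest start site to both was that of Gm49773, a gene model without a known product, and the summits of all 3 upstream peaks lay within another such model, Gm49774.

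Inside Hmga1, introns held 2 summits. The one 1248 bp into the gene, counted from the nearest Hmga1 start site, had 6.75-fold enrichment and 25 reads (16.2 to 36.9) in a peak of 1035 bp. The one at 2510 bp was the weakest at this gene, with 2.75-fold enrichment, 13 reads (6.92 to 22.2) and a q-value of 0.065. These 2 peaks together with the 3 upstream ones were separated by gaps of 94 to 665 bp. Joined across gaps under 1 kb, they formed a single bound domain of 7030 bp around the 5′ end of Hmga1, ranked 112 among 19982 such domains, of which 0.561% were as wide or wider.

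Past the 3′ end of Hmga1, after a gap of 4538 bp, another group of 3 peaks formed a domain of 2226 bp. Their fold enrichment was 4.48, 3.52 and 4.82 and their reads were 22, 17 and 19, all close to the median of 18 reads over the list. The summits were 348, 81 and 208 bp from start sites of AI413582, the next protein-coding gene, and 8080 to 9269 bp from the nearest start of Hmga1. The first summit was closer still to a start of the antisense gene C130040N14Rik, at 337 bp. By distance to a coding start site, 5 of the 8 peaks would go to Hmga1 and these 3 to AI413582. The 20 kb window therefore took in the promoter of a neighbor at Hmga1.

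**Figure D2:**
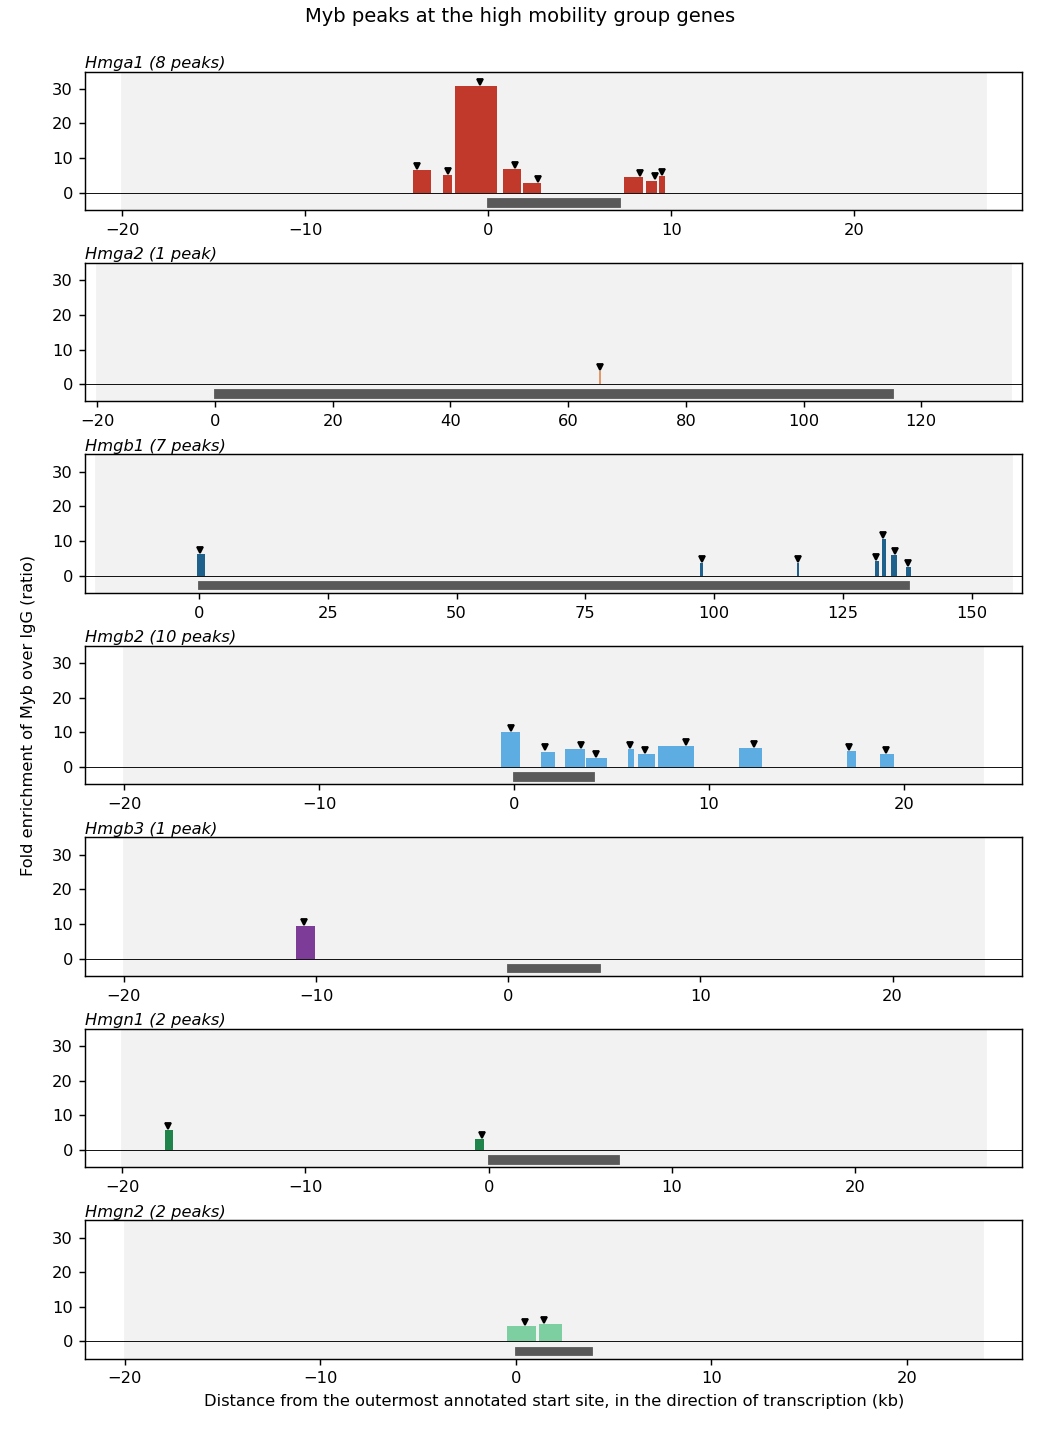
Myb peaks at each member, drawn by distance in kb from the outermost annotated start site in the direction of transcription (horizontal axis) against fold enrichment over IgG (vertical axis). Bars span the peaks, triangles mark summits, the dark bar is the gene body and the pale band is the gene with 20 kb on each side. The 30.9-fold peak of Hmga1 spans the gene start with 4 weaker peaks close by, whereas 7 of the 10 peaks of Hmgb2 lie downstream of its gene body.

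Hmga2 (ENSMUSG00000056758.14, chr10:120361275-120476469, minus strand), the other HMGA gene, had a single weak peak in spite of a gene body of 115 kb. The peak at chr10:120410907-120411212 was 306 bp wide, the narrowest of the 31, with 3.76-fold enrichment and 15 reads (8.40 to 24.7). Its summit lay in an intron, 65.2 kb from the nearest Hmga2 start site. The nearest start site of any gene was that of the antisense gene 9230105E05Rik, 21552 bp away. No peak lay within 3 kb of an Hmga2 start. Per 100 kb of gene and flanks, the density was 0.644 peaks, and 56.7% of protein-coding genes were at least as dense.

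Hmgb1 (ENSMUSG00000066551.12, chr5:149046702-149184489, minus strand) encodes a DNA-bending protein that also acts as an alarm signal outside the cell. All of its 7 summits were in the annotated gene body, which spans 138 kb because of a transcript with a remote start. The strongest peak, chr5:149051193-149051942, had 10.6-fold enrichment and 33 reads (22.7 to 46.3), with the summit 133 bp from an Hmgb1 start site. A neighbor with 4.29-fold enrichment and 21 reads (13 to 32.1) lay 123 bp from another start. These peaks sat at the start sites of the short transcripts.

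At the remote start of Hmgb1, a peak of 1562 bp at chr5:149183364-149184925 had 6.25-fold enrichment and 29 reads (19.4 to 41.6). Its summit was 294 bp from that Hmgb1 start but only 132 bp from a start of Mm2pr and 155 bp from one of the coding gene Uspl1. The peaks at 14666 and 33287 bp from the nearest Hmgb1 start were intronic and weak, with 3.60-fold and 3.71-fold enrichment and 18 reads each. Toward the 3′ end, a summit in an exon had 6.03-fold enrichment and 18 reads, and a summit in the UTR had 2.51-fold enrichment, 15 reads and a q-value of 0.16. RefSeq gives Hmgb1 a span of 6.36 kb without the remote start, and by that span, an alternative chosen after seeing the data, Hmgb1 had 5 peaks and the 7 genes had 29.

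Hmgb2 (ENSMUSG00000054717.7, chr8:57511907-57515999, plus strand), an HMGB gene expressed in dividing cells, had the most peaks of the 7. Its strongest peak was at the promoter, chr8:57511214-57512221, with 10.1-fold enrichment and 38 reads (26.9 to 52.2) and the summit 177 bp upstream of a start site. Inside the gene, an intronic summit 934 bp from a start had 4.47-fold enrichment and 13 reads, and one in the UTR, 2779 bp from a start, had 5.11-fold enrichment and 17 reads. The intronic summit had the Myb motif nearest to a summit among the members, TAACTG beginning 3 bp past it.

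Downstream of Hmgb2, 7 further peaks had summits 3565 to 18440 bp from the nearest Hmgb2 start. Their fold enrichment ran from 2.51 to 5.95 and their reads from 15 to 20, so all 7 were near the median of 18 reads over the list. The widest, chr8:57519288-57521148, spanned 1861 bp with 5.95-fold enrichment and 20 reads (12.2 to 30.9). The weakest, 2.51-fold with 15 reads, had a q-value of 0.16. The nearest start site of any gene was that of the processed pseudogene Gm6012 for 5 of the 7, at 138 bp for the widest peak, and that of Galnt7 for the last. The last 3 summits lay inside the annotated body of Galnt7. By nearest start site of any gene, 4 of the 10 peaks belonged to Hmgb2, and by nearest coding start site 8 did and the last 2 went to Galnt7. With gaps under 1 kb closed, Hmgb2 held domains of 3372 and 3414 bp with 3 peaks each, and neither included the promoter peak.

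Hmgb3 (ENSMUSG00000015217.11, chrX:71555918-71560676, plus strand), the X-linked HMGB gene that is known for its expression in hematopoietic stem cells, had 1 peak and it was not at the promoter. It lay upstream at chrX:71544884-71545877, with a summit 10.6 kb from the nearest Hmgb3 start, 9.48-fold enrichment and 48 reads (35.4 to 63.6). Only the promoter peak of Hmga1 had more reads among the 31. The nearest annotated start site of any gene was that of Hmgb3 itself. Among the 948 protein-coding genes of chromosome X, 24.9% had at least 1 peak by the same rule, against 58.6% of all.

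The HMGN genes encode nucleosome-binding proteins. Hmgn1 (ENSMUSG00000040681.16, chr16:96120618-96127729, minus strand) had a peak of 463 bp with its summit 372 bp upstream of a start site, at 3.14-fold enrichment and 15 reads (8.40 to 24.7). A stronger one of 395 bp at chr16:96144974-96145368, 5.72-fold with 21 reads (13 to 32.1), lay 17.5 kb upstream and only 186 bp from a start of Wrb. The peak by Wrb was the higher of the 2 in fold, while their read intervals overlapped.

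Hmgn2 (ENSMUSG00000003038.15, chr4:133964738-133968650, minus strand) had both of its peaks on its own start sites. Summits 30 and 147 bp from Hmgn2 starts had 4.95-fold and 4.48-fold enrichment and 18 (10.7 to 28.4) and 22 (13.8 to 33.3) reads. The first lay in the coding sequence and the second in an intron. These peaks were wide for their height, at 1169 and 1462 bp against a median of 577 bp over the list, and closing the gap between them gave a domain of 2801 bp.

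**Figure D3:**
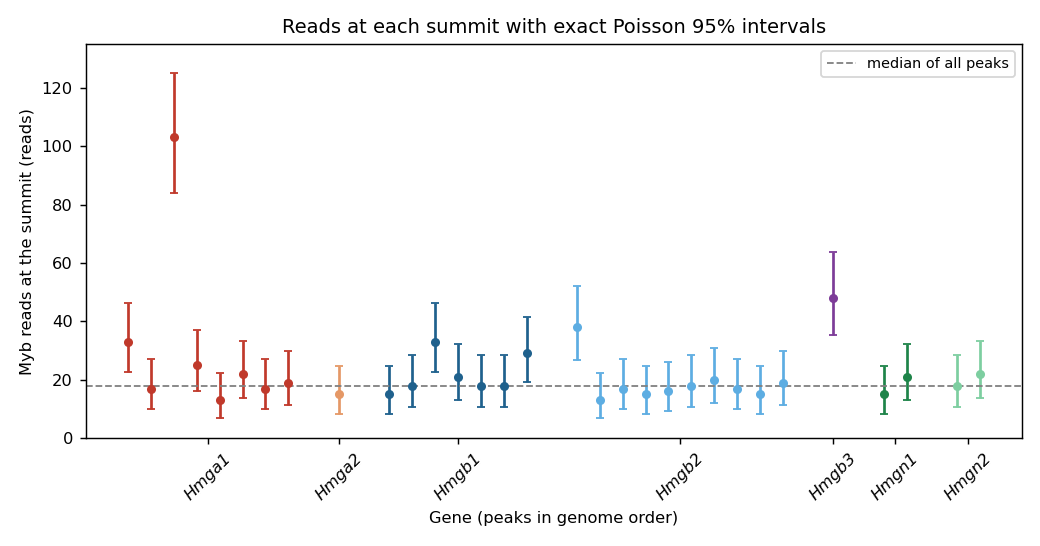
Myb reads at the summit of each of the 31 peaks (vertical axis, reads), grouped by gene and in genome order, with exact Poisson 95% intervals for counting error. The promoter peak of Hmga1 with 103 reads stands above every other interval, and most of the rest lie around the dashed line, the median of 18 reads over all peaks.

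Set side by side, Hmga1 and the other 6 members differed in the height of 1 peak more than in the width of their peaks. The median width was 992 bp at Hmga1 (n = 8, quartiles 559 and 1016) and 847 bp at the others (n = 23, quartiles 532 and 1061), and 9 of the 23 were wider than the Hmga1 median. Peaks wider than 900 bp were 5 of 8 at Hmga1 and 10 of 23 at the others, and 24.1% in the list. Above 2 kb there was only the promoter peak of Hmga1, and 3.36% of all peaks were that wide.

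Median fold enrichment was 5 at Hmga1, 4.55 at the other members and 4.51 over all peaks. A fold enrichment of 10 or more was found in 3 of the 31 peaks, the strongest of Hmga1, Hmgb1 and Hmgb2, and in 4.47% of the list. These 3 of 7 genes compare with 7.29% of protein-coding genes that had such a peak, in counts that the selection itself uses. By reads the order differed, and the top Hmga1 peak (Poisson interval 84.1 to 125) was followed by that of Hmgb3 (35.4 to 63.6). The Hmgb3 peak, at 9.48-fold, had 48 Myb reads, before the scaling that enters the fold, over a background of 3. At the 10.6-fold Hmgb1 peak there were 33 reads over 1.5, near the lowest background shared by over 5% of rows, 1.46 reads. These intervals cover counting error only, and no difference between the peaks was tested. The q-value exceeded 0.05 in 3 of the 31, at Hmga1, Hmgb1 and Hmgb2, and in 7.24% of the list.

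**Figure D4:**
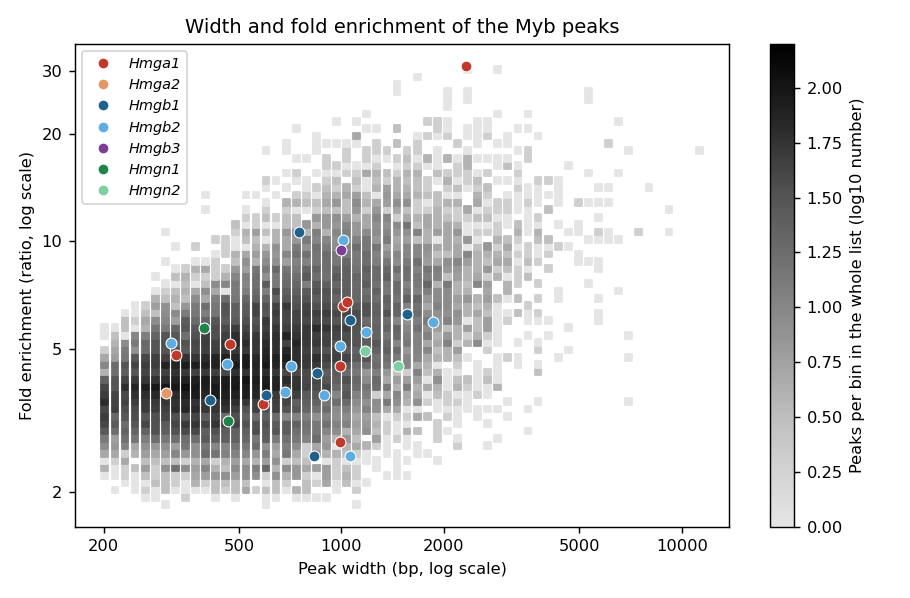
Peak width in bp (horizontal axis, log scale) against fold enrichment (vertical axis, log scale), with the members' 31 peaks as colored points and all 25793 peaks as gray bins shaded by their log10 number. The promoter peak of Hmga1, 2325 bp wide and 30.9-fold enriched, lies at the upper edge of the cloud, and the other 30 lie within its dense part or near it.

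In position, 14 of the 31 summits were in a gene body, 7 upstream and 10 downstream. Hmgb1, with an annotated body of 138 kb, held 7 of the summits in gene bodies, and no share over all peaks is given for these places. At Hmga1 the split was 3 upstream, 2 within and 3 downstream, and at the other members 4, 12 and 7. Within 3 kb of a start site of its own gene lay 14 summits, 4 of them at Hmga1, 4 at Hmgb1, 3 at Hmgb2, 2 at Hmgn2 and 1 at Hmgn1, so 5 members had a peak there and Hmga2 and Hmgb3 had none. Of all protein-coding genes, 39.9% had a summit within 3 kb of their own start. Within 1 kb there were 9, of which Hmgb1 had 3 and Hmga1 1, and no share over all genes is given for this distance. The share of gene and flanks covered by peaks was 20.8% at Hmgb2, 16.4% at Hmga1, 5.99% at Hmgn2, 3.41% at Hmgb1, 2.22% at Hmgb3, 1.82% at Hmgn1 and 0.197% at Hmga2, with a median of 0.717% over protein-coding genes.

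Just past the 20 kb limit, the nearest summit was 20052 bp from Hmga1, 3.71-fold with 18 reads at chr17:27583276-27583860 by Nudt3. It was 21.8 kb from Hmgn2, 24.2 kb from Hmgb2, 28.8 kb from Hmgb1, 37.2 kb from Hmga2 and 37.6 kb from Hmgn1, and no peak outside the limit lay within 100 kb of Hmgb3. The Hmgb2 neighbor, 8.33-fold with 42 reads by Sap30, was the strongest of these. Inside the limit, the summit farthest from its gene was 3886 bp away at Hmga1 (6.60-fold), 14989 bp at Hmgb2 (3.79-fold), 10.6 kb at Hmgb3 (9.48-fold) and 17.5 kb at Hmgn1 (5.72-fold).

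The sequence around the summits was not used by the selection. A Myb motif within 50 bp of the summit was found in 5 of the 31 peaks, or 16.1% (5.45% to 33.7%, exact binomial 95% interval), and in 16.7% of the list. The 5 were the strongest peaks of Hmga1, Hmgb2 and Hmgb3, the exonic peak of Hmgb1 and the intronic peak of Hmgb2. For other blood factors, searched on both strands in the same window, the ETS letters AGGAAG or CGGAAG were in 4 of the 31 (12.9%, list 20.4%) and the RUNX letters TGTGGT or TGCGGT in 4 (12.9%, list 12.2%). The SP/KLF letters GGGCGG were in 3 (9.68%, list 7.15%), and the GATA letters AGATAA or TGATAA in 0 (list 13.8%). At Hmga1, RUNX letters were in 3 of 8 windows and SP/KLF letters in none. The RUNX letters were at the farthest upstream peak and at the first and last peaks by AI413582. The promoter peak and the intronic peaks of Hmga1 had none. A match is only a match of letters, and how often such letters arise by chance was not tested.

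GC content within 100 bp of the summit was 58.2% at the top Hmga1 peak and 79.1% at the top Hmgb1 peak. The medians were 58.0% at Hmga1, 45.8% at the other members and 48.3% over the list. In the RefSeq promoter windows (GRCm38.p6, 300 bases around a start), which exist for all 7 genes in 9 records, the Myb motif was found once in Hmgn2, once in Hmgb2 and in no record of the others. It was present in 28.3% of 32851 promoter windows. For Hmga1 the strong peak overlapped both of its promoter windows, but the summit and the 2 motifs printed above lay upstream of them.

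Reads with low mapping quality were discarded by the authors, and for most of these genes much of the coding sequence also occurs elsewhere in the genome. By names that add -ps to the gene symbol, GENCODE vM21 has 10 pseudogenes of Hmgb1, 1 each of Hmgb3 and Hmgn2, and 0 of the other members. Copies under other names were not counted. Among coding bases, the share inside 64-base words that occur more than once in GRCm38 was 84.8% at Hmga1, 4.95% at Hmga2, 87.4% at Hmgb1, 99.8% at Hmgb2, 96.1% at Hmgb3, 49.3% at Hmgn1 and 30.3% at Hmgn2. No base of the 8 Hmga1 peaks was in such a word, nor of the single peaks of Hmga2 and Hmgb3. The highest share in a peak was 30.2%, at the intronic summit of Hmgb2. How far this lowered the signal over coding exons was not tested.

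Related genes of chromatin and of the HMG box were counted by the same rule. Of 33, 28 had at least 1 peak (84.8%, against 58.6% of protein-coding genes), and the median was 3 peaks. Linker histones, the chromatin proteins with which HMGN proteins compete, had a peak at 6 of 7 genes with a median of 9. The counts were highest at Hist1h1d (19 peaks, strongest 25.4-fold), Hist1h1a (11) and, in a tie, the HMG-box factors Sox4 and Sox6 (10 each). Sox4 spans 4.79 kb and Sox6 568 kb, so per 100 kb of gene and flanks they had 22.3 and 1.64 peaks. The 5 Hist1h1 genes are all on chromosome 13, where windows of close neighbors can count the same peaks, whereas H1f0 and H1fx are on chromosomes 15 and 6. Hist1h1a and Hist1h1c had the same highest fold (17.3) and the same largest width (4258 bp), as when 1 peak counts for both. The HMG genes outside the 7 had a peak at 5 of 7, the FACT subunits at 2 of 2, remodeller subunits and factors with an HMG box at 6 of 6, and HMG-box transcription factors at 9 of 11. Hmgb4, Hmgn3, Tcf7, Tox3 and H1fx had none. Of the 33, 7 had at least 8 peaks, against 4.11% of protein-coding genes, but 4 of these 7 were Hist1h1 genes.

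All 6 stem and progenitor markers examined (Kit, Cd34, Gata2, Runx1, Myb and Meis1) had peaks, 2 to 16 each. Of all protein-coding genes, 58.6% had at least 1 peak by the same rule, and the marker counts were not adjusted for gene length. Markers of mature cells had peaks too, with 1 at Cd3e, 1 at Ms4a1 and 2 at Itgam, and Ly6g had 0. The peaks at Cd3e, Ms4a1 and Itgam all lay more than 3 kb outside the gene. Only part of the mature list is given, so the lists were not compared. A peak is not an expression level, so these counts do not measure purity.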

How the data were processed

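The 7 genes, the related list and the comparisons were chosen with earlier results of these data known. Myb ChIP-Seq of 1 library, with 1 IgG library as its control, was analysed from the deposited peak list; no separate file of the IgG library was used here. Groups were taken from the sample titles. Per the labels and methods, chromatin was sheared by 14 cycles of sonication, and 1 μg was used with 1.5 μg of antibody, followed by tagmentation on beads, 12 cycles of PCR and single-end sequencing. According to the submitters' processing notes and the methods, the authors used cutadapt 1.15, BWA 0.7.13 against mm10, Picard for duplicates and MACS2 2.1.1.20160309, kept reads with a mapping quality above 30 outside the blacklist, and kept peaks by overlap of pseudoreplicates, which are subsets of the same library. The methods give a q-value threshold of 0.05, but the list also holds rows above it, and all rows were kept.

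The deposited fold enrichment is a ratio of Myb pileup to local IgG background, each plus 1. The deposited −log10 p-value and −log10 q-value are those of MACS2, and the deposited score is an integer form of significance that was not used. From these, reads at each summit were recovered, with the Myb pileup taken as reads times a scale of 0.769. This gave whole reads in 100% of rows (tolerance 0.0005 of the −log10 p-value), against 2.81% after fold values were shifted. In 1.35% of rows more than 1 read number was within tolerance. Total depth is not given in the sources used here, and the median of 18 reads at a summit sets the precision.

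Coordinates are 1-based in mm10. Summits were assigned with GENCODE vM21, and windows of 20 kb around all protein-coding genes outside the mitochondrial genome gave the background shares. Names were given by rule: the 7 members with all their peaks, the nearest start site of each peak, and of the related list the genes with the 3 highest counts and those with none. Read intervals are exact Poisson and shares exact Clopper-Pearson at 95%. With 1 library no p-value was computed. The recovery of reads and the assignment were tested on simulated data. Alternatives changed the q-value threshold, the window, the overlap rule, the merging of close peaks, the gene spans, the promoter window and the motif. Python 3.11.15, pandas 2.3.3, scipy 1.17.1 and matplotlib 3.10.9 were used. Of the 6 markers of mature cells in the list, 2 are not reported here.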

Additional observations from a re-analysis of the deposited data

How the results depend on the processing

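Of the values recomputed under alternatives, 39 stayed within their error or within 1.5 times the count, and 16 moved. All 7 members kept a peak under a q-value of at most 0.05, a 50 kb window, any overlap with the window, merging and RefSeq spans, but 6 did with a 3 kb window (without Hmgb3) and 5 at a −log10 q-value of at least 5 (without Hmga2 and Hmgn2). That stricter threshold left 14 peaks, 4 of them at Hmga1, with 8 within 3 kb of an own start, and a share of protein-coding genes with a peak of 42.3%. That share was 57.4% at a q-value of at most 0.05, 46.4% with the 3 kb window and 68.7% with 50 kb. With 50 kb there were 50 peaks, 13 at Hmga1. Merging peaks closer than 1 kb left 19, of which Hmga1 had 2 with a median width of 4628 bp, and 8 were within 3 kb of an own start. A promoter window of 1 kb held 9 peaks. By nearest coding start Hmga1 had 5, and within 25 bp of the summit 3.23% of peaks had a Myb motif (8.68% in the list).

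The order of the members by number depended on the rule. With a 3 kb window Hmga1 and Hmgb1 had 7 peaks each and Hmgb2 6, with 50 kb Hmga1 and Hmgb2 had 13 each, and after merging Hmgb1 and Hmgb2 had 6 each and Hmga1 2. The highest fold enrichment was at Hmga1 in each of these. None of these rules could change that, because its promoter peak was the highest of the whole list and lay beside the gene. The single Myb library limits every statement to that library. No paired analysis was possible because each arm is a single library and no result comes from a test.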
